A study of Mus musculus with 2 samples.

Results

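The first 5 Mb of assembled sequence on 18 mouse autosomes held 3772 of the 90984 peaks that the authors' caller had called in chromatin immunoprecipitation for Smad4. They were chosen by position alone, as every peak of the list on chromosomes 1 to 19, without chromosome 14, that starts after position 3000000 and up to 8000000 in the genome build mm9. No value of a single peak decided its membership, although the region itself was set with earlier results of these data known. The same 18 chromosomes held 75484 further peaks beyond 8000000, which served as the comparison, and 0 peaks up to 3000000. The tissue came from C57BL/6 mouse embryos, as forelimbs collected on embryonic days 12.5 and 13.5. Both ages are given together for 1 Smad4 library, made with a Smad4 antibody, and for 1 library of input DNA, chromatin that was sequenced without immunoprecipitation. No genotype, transgene or treatment is given for either, and the labels do not say whether embryos or ages were pooled. With 1 library there is no replicate check and no test between conditions: intervals cover counting error only, since peaks and sequenced tags are not independent samples. How deeply either library was sequenced is not known.

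Smad4 is the shared partner of the receptor-activated Smads, which carry BMP and TGF-β signals into the nucleus, where Smad complexes bind DNA together with other transcription factors. At these ages the limb skeleton is laid down as condensing mesenchyme and cartilage. Mouse autosomes carry the centromere almost at one end. It consists of minor satellite repeats beside large blocks of major satellite, which form constitutive heterochromatin, silent chromatin rich in methylated histone H3 lysine 9 and its binding protein HP1. Most of this satellite sequence is missing from the assembly and is represented by a run of unknown bases, so the first assembled bases are the nearest mapped neighbours of the pericentromere. The series looked for direct targets of Smad4 in chondrocyte hypertrophy. The list holds no gene names, and neither the mm9 genome nor its annotation was used here, so each peak is given by its mm9 coordinates.

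The main question set by the position was whether peaks were denser beside the centromere. The first 5 Mb held 41.9 peaks per Mb (exact Poisson 95% interval 40.6 to 43.3) and the rest of the same chromosomes 34.3 peaks per Mb (34.0 to 34.5). The ratio of these densities was 1.22 (exact conditional binomial 95% interval 1.18 to 1.26). The mean over 18 chromosomes was 41.9 ± 8.66 peaks per Mb (SD, n = 18 chromosomes) in the first 5 Mb against 34.2 ± 1.76 in the much longer rest, and chromosomes are not replicates. The other 431 windows of 5 Mb on these chromosomes had 34.3 ± 7.82 peaks per Mb (SD). Single windows as dense as the mean first window occurred elsewhere too, as 38 of those 431 (8.82%).

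The first 5 Mb were denser than the rest on 14 of 18 chromosomes, and the 95% interval of the ratio lay above 1 on 12 of them. These intervals cover counting error only, and single windows of 5 Mb elsewhere spread more widely (SD 7.82 peaks per Mb). Chromosome 18 had the highest ratio, 1.55 (1.36 to 1.75), with 54.6 peaks per Mb in its first 5 Mb and 35.3 in the rest. It was followed by chromosome 3 with 54.2 against 35.8 peaks per Mb, a ratio of 1.51 (1.34 to 1.71), and chromosome 15 with 48.0 against 31.8, also 1.51 (1.32 to 1.72). On these 3 chromosomes, and on chromosomes 6 and 8, no other 5 Mb window was as dense as the first. Chromosomes 6 and 8 had ratios of 1.47 and 1.45, and chromosomes 1, 4, 5, 7, 9, 12 and 13 had ratios from 1.23 to 1.33. On 4 chromosomes the interval included 1: the ratio was 1.01 on chromosome 10, 1.00 on chromosome 17, 0.998 on chromosome 2 and 0.935 on chromosome 11.

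Chromosomes 16 and 19 went the other way. Chromosome 19 had 26.2 peaks per Mb in its first 5 Mb and 33.2 in the rest, a ratio of 0.790 (0.656 to 0.943), and its first window shared the 10th place of 11 by density. Chromosome 16 had 28.8 against 35.8 peaks per Mb, a ratio of 0.805 (0.676 to 0.952), and its first window was 17th of 19. In both, the first Mb was dense and Mb 3 to 5 were sparse. Successive bins of 1 Mb held 46, 22, 19, 20 and 24 peaks on chromosome 19 and 49, 37, 17, 19 and 22 peaks on chromosome 16. Chromosome 18, by contrast, stayed dense throughout, with 70, 48, 43, 54 and 58 peaks, and chromosome 11 began sparse, with 17, 32, 21, 33 and 38 peaks.

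**Figure D1:**
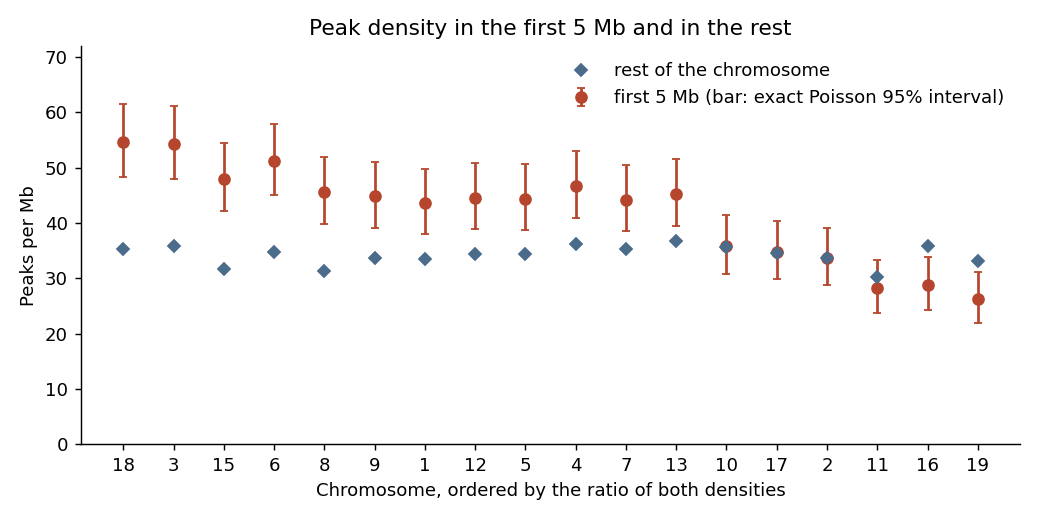
Peaks per Mb in the first 5 Mb (circles, with exact Poisson 95% intervals) and in the rest of each chromosome (diamonds), for 18 chromosomes ordered by the ratio of both densities. The first 5 Mb range from 26.2 peaks per Mb on chromosome 19 to 54.6 on chromosome 18, while the rest stays between 30.2 and 36.7.

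Along the chromosome, the density was highest close to the assembly start and then met a broad plateau that ran well past 5 Mb. In bins of 1 Mb over all 18 chromosomes, the first bin held 881 peaks, 48.9 per Mb (45.8 to 52.3), and the following 4 bins held 41.6, 38.8, 37.6 and 42.6 per Mb. The first bin was higher than any of the other 29 bins up to 30 Mb. On 16 of 18 chromosomes it held more peaks than an average Mb of the rest, chromosomes 11 and 17 being the exceptions, although it was the highest of the 5 bins on only 9. Within the first Mb the density fell from 93.3 peaks per Mb (79.8 to 109) in the first 100 kb to 71.1 (59.3 to 84.6) in the second and 50.0 (40.2 to 61.5) in the third. From there to 1 Mb the bins of 100 kb lay between 27.8 and 51.1 per Mb.

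The first 300 kb, a limit taken from this profile, held 386 peaks, 10.2% of the peaks of the region in 6% of its length, at 71.5 per Mb (64.5 to 79.0). The remainder of the first 5 Mb had 40.02 peaks per Mb (38.7 to 41.4). That was almost the density from 5 to 20 Mb, 39.7 per Mb (38.9 to 40.4), with a ratio of 1.01 (0.970 to 1.05) and 9 of 18 chromosomes higher. Bins of 1 Mb with at least 100 peaks, of which the first 5 Mb held 0, were kept in that stretch. The densest held 170 peaks, between 8 and 9 Mb on 1 chromosome. Beyond 20 Mb the density was 33.5 per Mb (33.3 to 33.8), and both inner zones were above it, by 1.19 times (1.15 to 1.24) from 300 kb to 5 Mb and by 1.18 times (1.16 to 1.21) from 5 to 20 Mb. The whole first window exceeded the stretch from 5 to 20 Mb by 1.06 times (1.02 to 1.10) and on 9 of 18 chromosomes only. The limits of 300 kb and 20 Mb were chosen after values of this list were seen. Ratios between these zones thus describe the profile and are no test of it.

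The first 300 kb differed widely between chromosomes. They held between 4 and 44 peaks, with a median of 20. Chromosome 18 held 44, chromosome 6 held 40, chromosome 4 held 33 and chromosome 19 held 32, together 38.6% of all peaks in this zone, whereas chromosome 11 held 4, chromosome 16 held 6 and chromosome 10 held 9. The density per Mb was higher than in the remainder of the first 5 Mb on 15 of 18 chromosomes. The limit of 300 kb was placed by the pooled counts of these same peaks, so a higher density was partly built in. This count and the pooled value are therefore descriptions. Leaving out any 1 chromosome kept the pooled value between 67.1 and 74.9 peaks per Mb. The nearest peak lay 0.454 kb from the assembly start at chr19:3000455-3001014 with 15 tags and a fold of 0.98. The median chromosome had its first peak at 6.76 kb and chromosome 11 at 116 kb, at chr11:3115793-3116368 with 17 tags and a fold of 1.74. On the 3 chromosomes of highest ratio the first peaks lay at chr3:3001647-3002083 with 17 tags, at chr18:3019808-3020292 with 24 tags and at chr15:3001679-3003184 with 46 tags. The last 2 held more tags than the upper quartile of the region, 20.

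Peaks here also stood closer together than in the rest as a whole. The median gap between neighbouring peaks was 7235 bp in the first 300 kb, 13857 bp over the first 5 Mb and 17528 bp in the rest. Gaps under 1 kb made up 15.5% of gaps in the first 300 kb, 9.99% over the first 5 Mb (exact binomial 95% interval 9.05 to 10.99%) and 7.97% in the rest (7.78 to 8.17%). From 5 to 20 Mb the median gap was 14287 bp, with 9.09% of gaps under 1 kb. From 300 kb to 5 Mb the values were 14885.5 bp and 9.44%, so only the first 300 kb stood apart from that stretch. With peaks less than 1 kb apart counted as 1, the first 5 Mb held 3397 peaks and the density ratio was 1.20.

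**Figure D2:**
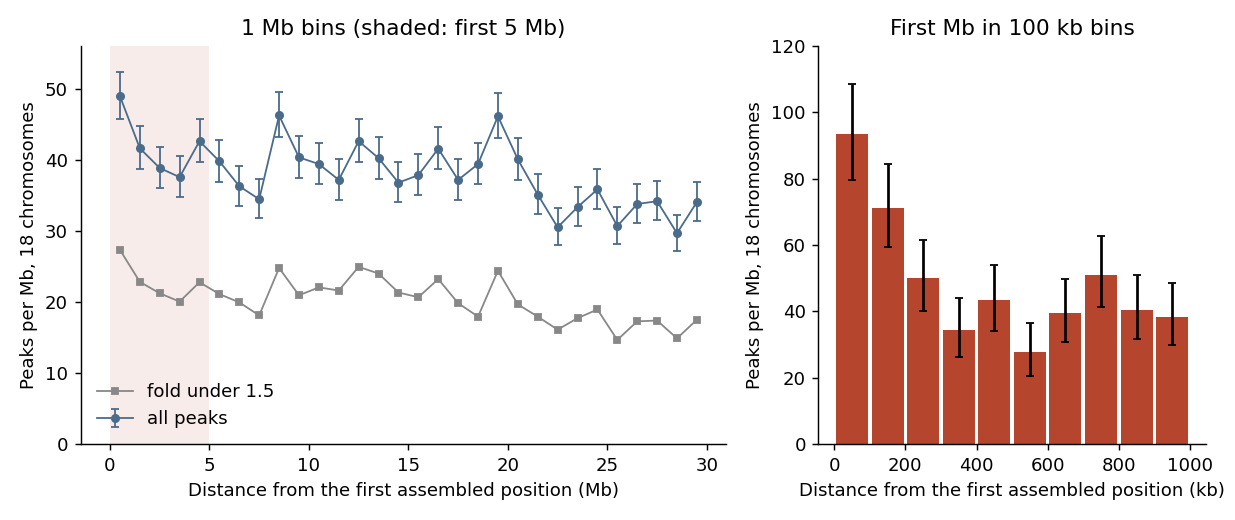
Peaks per Mb over 18 chromosomes by distance from the assembly start, with exact Poisson 95% intervals, in 1 Mb bins up to 30 Mb (left, all peaks and those of fold under 1.5, first 5 Mb shaded) and in 100 kb bins of the first Mb (right). The first 100 kb reach 93.3 per Mb, and the level from 5 to 20 Mb averages 39.7 per Mb before it drops.

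The next comparison was of peak strength, by the fold enrichment that the authors deposited, whose background and scale no source used here states. Against the rest as a whole, the higher density of the first 5 Mb lay in peaks of low fold. From 2-fold upward the interval of the density ratio included 1. Peaks under 1.5-fold, 50.9% of the whole list, made up 54.5% of the first 5 Mb (2056 peaks, exact binomial 95% interval 52.9 to 56.1%) and 50.9% of the rest (50.5 to 51.3%). Their density was 22.8 per Mb (21.9 to 23.9) against 17.4 (17.3 to 17.6), a ratio of 1.31 (1.25 to 1.37), and it was higher on 12 of 18 chromosomes. For peaks of 1.5-fold to under 2-fold, 34.8% of the list, the ratio was 1.21 (1.14 to 1.27). Peaks of 2-fold to under 3-fold, 13.4% of the list, had a ratio of 0.952 (0.858 to 1.05).

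At the weak end, 192 peaks had a fold below 1, which is 5.09% of the first 5 Mb (4.41 to 5.84%), beside 4.23% of the rest (4.08 to 4.37%) and 4.41% of the whole list. Their density ratio was 1.47 (1.27 to 1.70). They were most frequent next to the assembly start, at 9.33% (36 of 386 peaks, 6.62 to 12.7%) in the first 300 kb and 4.61% (3.93 to 5.37%) in the remainder of the first 5 Mb. From 5 to 20 Mb they made up 4.99% (4.59 to 5.42%), so beyond its first 300 kb the region did not exceed that stretch. The median fold was 1.45 in the first 5 Mb (quartiles 1.22 and 1.72) and 1.49 in the rest (1.25 and 1.78). It was lower than in the rest on 11 chromosomes, equal on 1 and higher on 6, and it ran from 1.36 on chromosome 18 to 1.61 on chromosome 19. In the first 300 kb it was 1.39 (order-statistic 95% interval 1.34 to 1.43), and from 5 to 20 Mb it was 1.45 (1.44 to 1.46).

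Strong peaks were few. At least 3-fold enrichment, reached by 0.835% of the whole list, was seen in 25 peaks of the first 5 Mb, or 0.663% (0.429 to 0.977%), against 0.828% of the rest (0.765 to 0.895%). Per Mb this was 0.278 (0.180 to 0.410) and 0.284 (0.262 to 0.307), a ratio of 0.979 (0.629 to 1.46), so a difference within that interval was not detectable with 25 peaks. With the region widened to 10 Mb the share was 0.547% against 0.848% beyond it, a difference of -0.301 percentage points. Its interval (-0.457 to -0.104), which covers the counting error of the region's share only, lay below 0. The interval of the density ratio, 0.770 (0.544 to 1.06), still included 1. The stretch added, from 5 to 10 Mb, lies outside the region and held 15 such peaks, 0.423% of its peaks and 0.167 per Mb (0.0933 to 0.275). The fall of the share on widening thus came from that stretch and says nothing of the first 5 Mb. In the first 300 kb lay 1 of the 25, at chr19:3035439-3036847 with 51 tags and a fold of 3.17. This zone holds 6% of the length, and its density of such peaks, 0.185 per Mb (0.00469 to 1.03), had an interval that overlaps that of the remainder, 0.284 per Mb (0.182 to 0.422). The 25 peaks were spread unevenly: chromosomes 7 and 17 held 5 each, chromosomes 8 and 19 held 4 each, and chromosomes 3, 4, 5, 9, 13, 15 and 18 held 0. On chromosome 17 the 5 peaks all started between 4626017 and 6557308, a density of 1.00 per Mb against 0.435 in the rest of that chromosome. Chromosome 7 had 1.00 per Mb against 0.381, chromosome 8 had 0.800 against 0.299, and chromosome 19 had 0.800 against 0.150. These densities rest on 4 or 5 peaks each, and no interval was computed for them. Single other windows of 5 Mb held more such peaks on chromosome 17 (up to 11) and on chromosomes 7 and 8 (up to 8 each). On chromosome 19 no other window held more than 2. Over all 18 chromosomes, the density of such peaks was higher in the first 5 Mb on 5 and lower on 13.

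**Figure D3:**
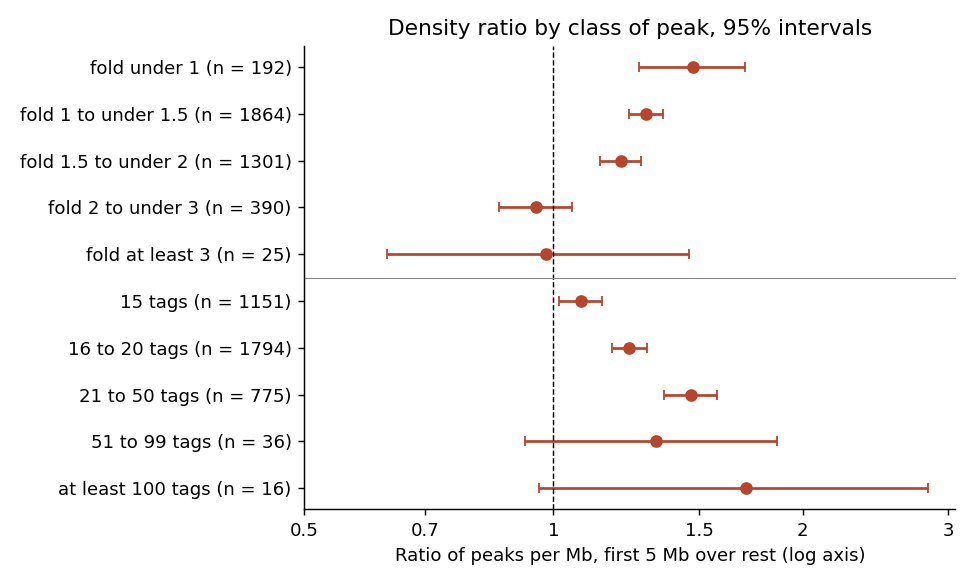
Ratio of peaks per Mb in the first 5 Mb to the rest of the same 18 chromosomes (log axis, exact 95% intervals) for classes of deposited fold (upper 5) and of tags (lower 5), with the number of peaks in the first 5 Mb. The ratio is 1.47 below 1-fold and 0.979 at 3-fold and above, where the interval includes 1.

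Density and fold were related from chromosome to chromosome within this region, and from window to window outside it. Over the 18 first windows, the density of peaks and their median fold had a Pearson r of -0.86 and a Spearman rho of -0.87, and over the other 431 windows of 5 Mb these were -0.55 and -0.63. The windows share 1 library, and fold and number come from the same peaks, so these are descriptions. The 12 first windows with at least 40 peaks per Mb had median folds from 1.36 to 1.52 (median 1.42). The 63 other windows of that density had 1.21 to 1.65 (median 1.43). Strong peaks stood at 0.200 per Mb in these 12 first windows and at 0.216 per Mb in those 63 others. Among the sparser windows the 6 first ones, on chromosomes 2, 10, 11, 16, 17 and 19, had median folds from 1.48 to 1.61 (median 1.57), beside a median of 1.49 in the 368 others, which ran from 1.27 to 2.04.

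**Figure D4:**
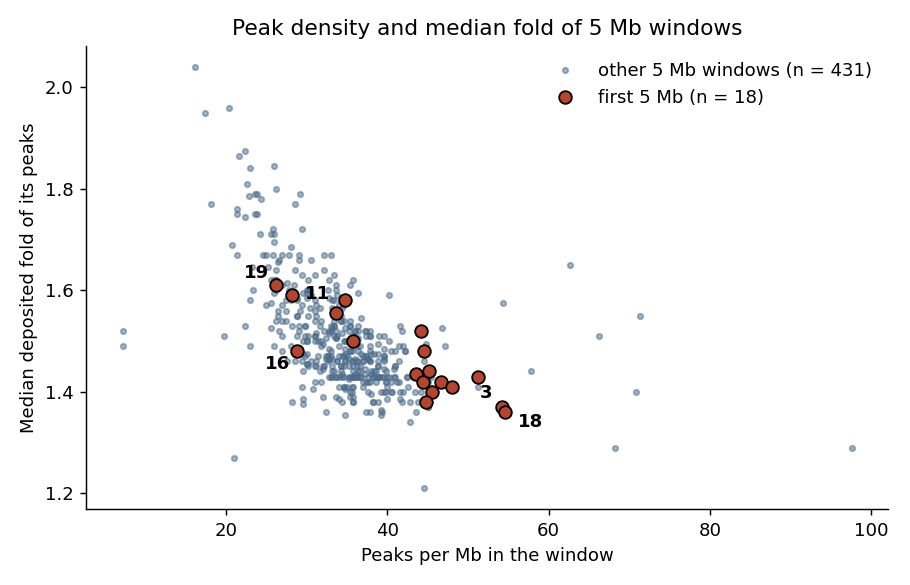
Peaks per Mb and median deposited fold of 5 Mb windows on 18 chromosomes, with the 18 first windows as large circles and the 431 others as dots, and 5 chromosomes numbered. The first windows of chromosomes 3 and 18 lie at the dense end with the lowest medians, and those of chromosomes 11 and 19 at the sparse end with the highest.

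Tags, length and tags per kb of single peaks were close to those elsewhere. The median peak held 17 tags in the first 5 Mb (quartiles 15 and 20) and 16 in the rest (15 and 19). The order-statistic 95% intervals of these medians held the single values 17 and 16. The median length was 588 bp (quartiles 554 and 658) against 585 bp (552 and 631), and medians of single chromosomes ran from 580.5 to 592 bp against 582 to 588 bp. Tags per kb of peak had a median of 29.0 (quartiles 26.9 and 31.7) against 28.8 (26.8 and 31.6). They were higher than in the rest on 11 chromosomes and lower on 7.

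The density ratio differed between classes of tags and length. Peaks of 15 tags, the lowest number in the list and 33.8% of it, made up 30.5% of the first 5 Mb (29.0 to 32.0%) and 34.6% of the rest (34.2 to 34.9%), with a density ratio of 1.08 (1.02 to 1.15). For peaks of 21 to 50 tags, 18.1% of the list, the ratio was 1.46 (1.36 to 1.58). For the 36 peaks of 51 to 99 tags, a class of 1.12% of the list, it was 1.33 (0.924 to 1.86), an interval that includes 1. Peaks longer than 1000 bp, 4.69% of the whole list, were 4.90% of the first 5 Mb (4.24 to 5.64%) and 3.91% of the rest (3.77 to 4.05%), and their density ratio was 1.53 (1.32 to 1.78). The intervals were wider and included 1 for the 17 peaks longer than 2000 bp (0.556% of the list), at 1.44 (0.827 to 2.35), and for the 22 peaks of at least 50 tags per kb (0.598% of the list), at 1.44 (0.891 to 2.21). Peaks longer than 1000 bp reached 9.84% (7.06 to 13.3%) in the first 300 kb. They were 4.34% (3.68 to 5.08%) from 300 kb to 5 Mb and 4.35% (3.97 to 4.75%) from 5 to 20 Mb. A deposited false discovery rate of at most 1%, met by 77.6% of the list, was met by 74.3% of peaks in the first 5 Mb (72.8 to 75.6%) and by 77.4% in the rest (77.1 to 77.7%). Peaks covered 27.0 kb per Mb in the first 5 Mb and 21.6 kb per Mb in the rest. The tags in them summed to 833 and 664 per Mb, while the mean per covered kb was 30.9 and 30.7 tags.

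Peaks of at least 100 tags, 0.434% of the list, numbered 16 on 10 chromosomes. They held 4.20% of the tags in peaks of the first 5 Mb, beside 4.44% for the 229 such peaks of the rest. Their density ratio was 1.71, with an interval from 0.961 to 2.84. A fold below 1 was seen in 5 of the 16 and in 71 of the 229 of the rest, so it was about as frequent in both. The median fold of these peaks was 1.67 in the first 5 Mb and 1.13 in the rest. In the first 300 kb lay 6 of the 16, at 1.11 per Mb (0.408 to 2.42) against 0.118 (0.0567 to 0.217) from 300 kb to 5 Mb.

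The 10 peaks with the most tags held 125 to 839 tags and had folds of 0.69 to 1.97, below 1 in 5 of them. The first was at chr12:3109404-3110646, 109 kb from the assembly start. Its 839 tags (783 to 898) on 1243 bp gave 675 tags per kb, with a fold of 1.97 and a p score (10 times the negated log10 of the deposited p-value) of 1823. At chr6:3150380-3151816 a peak held 358 tags (322 to 397), 249 tags per kb, with a fold of 1.15, and another at chr6:3143637-3147025 held 125 tags (104 to 149) with a fold of 0.87. The longest peak of the region lay 6.66 kb from the start of chromosome 4, at chr4:3006658-3012163, with 274 tags (243 to 308) on 5506 bp, 49.8 tags per kb and a fold of 0.80. Chromosomes 16 and 17 had similar peaks near the start, at chr16:3231454-3235495 with 181 tags and a fold of 0.95, and at chr17:3076124-3078144 with 147 tags and a fold of 0.92.

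The other 4 lay farther in. They were at chr10:7095915-7099341 (164 tags, fold 1.65), chr5:5944688-5945626 (157 tags, fold 1.86), chr12:4219169-4221764 (128 tags, fold 0.69) and chr3:5860271-5860949 (125 tags, fold 1.46). These 10 peaks took 2 forms. The peaks on chromosomes 3 and 5 and the leading ones on chromosomes 12 and 6 were 679 to 1437 bp long and held 167 to 675 tags per kb, whereas the other 6 were 2021 to 5506 bp long and held 36.9 to 72.7 tags per kb. Of the 10 peaks with the highest tags per kb, 5 were among the 10 with the most tags and 3 among the 10 with the highest fold. The remaining 2 lay near each other at chr2:5239618-5240771 with 102 tags, 88.4 tags per kb and a fold of 2.94, and at chr2:5299577-5300679 with 88 tags, 79.8 tags per kb and a fold of 1.52.

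The 10 peaks with the highest fold all lay beyond the first Mb, which held 881 of the 3772 peaks. Their leader was at chr17:4626017-4626996, with a fold of 6.48, 100 tags (81.4 to 122) on 980 bp, 102 tags per kb and a deposited false discovery rate of 0%. Next came chr16:5708884-5709556 with a fold of 4.60 and 46 tags (33.7 to 61.4), chr19:6248270-6248981 with 4.28 and 22 tags (13.8 to 33.3), and chr7:6146929-6147555 with 4.20 and 34 tags (23.5 to 47.5). Chromosome 17 held 5 of the 10, the others there having 4.06-fold at chr17:6390596-6391108 with 15 tags, 3.76-fold at chr17:5863985-5866978 with 113 tags, 3.46-fold at chr17:4782500-4782932 with 20 tags and 3.43-fold at chr17:6557308-6557822 with 18 tags. The peak at chr10:4473087-4473926 had 3.64-fold and 26 tags, and the one at chr6:4873018-4874638 had 3.50-fold and 112 tags. Most of these peaks hold few tags, with a median of 30. The intervals given are those of the tags. No interval of the fold was available, so the order by fold is given without an error.

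**Figure D5:**
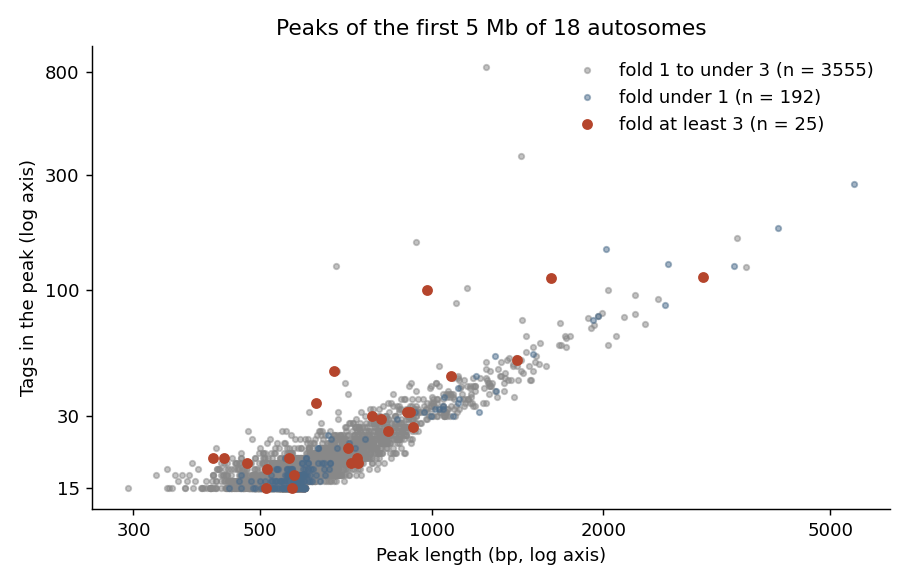
Length and tags (both log axes) of the 3772 peaks in the first 5 Mb of 18 autosomes, by deposited fold under 1, 1 to under 3, and at least 3. Most peaks follow a band of tags rising with length, and the peaks of 839 and 358 tags stand far above it. Of all 3772 peaks, 25 reach 3-fold.

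The limit of 8000000 passed between unremarkable peaks. On the 3 chromosomes of highest and the 3 of lowest ratio, the last peak inside held 15 to 21 tags with folds of 1.20 to 2.65, and the first peak outside held 15 to 27 tags with folds of 1.43 to 1.80. On chromosome 18 these were at chr18:7996803-7997381 with 17 tags and at chr18:8012068-8012647 with 15 tags.

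Set against the opposite, distal ends of the same chromosomes, the last 5 Mb up to the last peak, the first 5 Mb differed in number and in strength. The last 5 Mb held 2834 peaks, 31.5 per Mb (30.3 to 32.7), and the ratio of the first to the last was 1.33 (1.27 to 1.40), with 15 of 18 chromosomes higher at the centromeric end. Peaks of at least 3-fold stood at 0.278 per Mb in the first 5 Mb and 0.633 per Mb (0.480 to 0.821) in the last. That is a ratio of 0.439 (0.263 to 0.713). The rest as a whole, which includes the last 5 Mb, had 0.284 such peaks per Mb, so here the distal end stood apart. In all peaks the last 5 Mb were also sparser than the rest outside both ends, with a ratio of 0.916 (0.882 to 0.951). Peaks under 1.5-fold had a ratio of 1.55 (1.45 to 1.67). The median fold was 1.45 at the centromeric end, 1.49 in the rest and 1.53 at the distal end.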

How the data were processed

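Smad4 ChIP-seq and input DNA of mouse forelimb were sequenced on an Illumina HiSeq machine, per the labels' protocols, as 1 library each. The submitters' processing notes name BWA, SICER, MACS and build mm9, without versions, roles or settings. Per the file headers, the list has MACS columns. Tag counts per peak are whole-number counts deposited by the authors. The p score (10 times the negative log10 of the p-value), the fold (a ratio to a background not stated) and the false discovery rate (a percentage, at most 4.99%) were deposited by the authors and used only to describe peaks within the list.

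Peaks were assigned by start. The rest of a chromosome ran from 8000001 to its last peak end, 2202.8 Mb in all against 90 Mb. Unassembled sequence within it was not removed. Intervals are exact Poisson, exact binomial (Clopper-Pearson), conditional binomial for ratios and order-statistic for medians. For a difference in shares, the limits are those of the region's share minus the share of the rest, taken as fixed. No test between samples was possible with 1 ChIP library. Named peaks are the 10 with the most tags, the highest fold and the highest tags per kb, and, on the 3 chromosomes of highest and lowest ratio, those at the limits of the region. The region and the comparisons were chosen with earlier results of these data known. The zones of 300 kb, 5 to 20 Mb and beyond, the density class of windows, and the classes of fold, tags and length other than 2-fold, 3-fold, the lowest number of tags and 100 tags, were chosen after values of this list were seen. The interval calculations were tested on simulated data. Values were computed with pandas 2.3.3 and numpy 2.4.6 in Python 3.11.15, intervals with scipy 1.17.1 and plots with matplotlib 3.10.9.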

Additional observations from a re-analysis of the deposited data

How the results depend on the processing

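The density ratio of 1.22 stayed above 1 under each alternative but 1: among peaks of at least 2-fold it was 0.954, with an interval (0.862 to 1.05) that includes 1. It was 1.17 with a false discovery rate of at most 1%, 1.30 for peaks of more than 15 tags, 1.42 and 1.32 for a region of 1 and 2 Mb, 1.17 without the first Mb or the first 300 kb, and 1.06 against 5 to 20 Mb only. Leaving out each chromosome in turn gave 1.20 to 1.25. Dense windows left out, a region of 10 Mb, merging, windows with a peak, summits, the rest without its last 5 Mb, and the comparison beyond 20 Mb kept it within its interval. The ratio of peaks under 1.5-fold, 1.31, was 1.25 with a false discovery rate of at most 1% and 1.55 and 1.43 for 1 and 2 Mb (without each chromosome 1.27 to 1.35). For peaks of at least 3-fold it was 0.390 in the first Mb, from 2 peaks, and 0.848 to 1.09 without each chromosome. In medians, first 5 Mb minus rest, the difference of 1 tag became 0 with a false discovery rate of at most 1%. The length difference of 3 bp was 7 and 5 bp for 1 and 2 Mb, that of 0.198 tags per kb was 0.348 for 1 Mb, and that of -0.04 in fold was -0.07 for 1 Mb. The difference in the share of at least 3-fold peaks, -0.165 percentage points, was -0.600 for 1 Mb and -0.336 for 2 Mb. For 10 Mb, which adds a stretch outside the region, it was -0.301 (-0.457 to -0.104, counting error of the region's share only). It ran from -0.260 without chromosome 19 to -0.0877 without chromosome 4. The cause of these shifts was not tested beyond the size of the region and the limits themselves. The intervals assume Poisson counts, whereas single windows spread more widely, and the depth of the libraries is unknown. No paired analysis was possible because there is only 1 library per group.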

Other observations

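Chromosome 14 and the sex chromosomes were outside the rule. In the same 5 Mb, chromosome 14 held 873 peaks, 174.6 per Mb, and X held 462 peaks, 92.4 per Mb, both above the highest of the 18 chromosomes described, 54.6 per Mb on chromosome 18.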
